A study of Mus musculus with 9 samples.

Results

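The genes described here encode the collagens, the laminin chains and the nidogens, and they were read across sorted mouse brain microglia and spleen monocytes. A gene was taken when its symbol was Col, a number, a and a number (such as Col4a1), Lama, Lamb or Lamc with a number, Nid1 or Nid2, and when its probe set was annotated to a single symbol. This gave 56 of the 19937 genes measured, 44 collagens, 10 laminin chains and 2 nidogens. They rested on 58 probe sets, and Col6a5 and Col6a6, which had 2 probe sets each, were read from the brighter.

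There were 9 arrays in 3 groups of 3: Ly6C-high microglia, which the labels call MgSCs, Ly6C-low microglia, which the labels call bulk microglia cells, and spleen monocytes. All cells came from wild-type C57BL/6 mice kept free of specific pathogens, and no age is given in the sources used here. After perfusion with saline, brains were minced, digested with collagenase and DNase and enriched for leukocytes on Percoll, and cells were sorted with antibodies to Ly6C, MHC class II, CD11b, CD45 and EMR1, a macrophage antigen. The digestion cuts collagen protein, whereas the arrays measured RNA. How the spleen monocytes were sorted is not described in the sources used here, and nothing says whether replicates are different animals, so that the p-values cover only a spread among arrays that could be technical. Ly6C is a surface antigen that splits monocytes into classes and is also known on brain endothelium.

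Basement membranes are thin sheets of matrix on which endothelial cells lie and in which pericytes are embedded. Laminins are trimers of an alpha, a beta and a gamma chain, and many of them, but not all, polymerise on the cell surface. Type IV collagen forms a second, covalently linked network, and nidogens join the networks. In the brain such sheets surround every vessel, where endothelium, pericytes and astrocytes are known to make them. Fibrillar collagens form the fibres of connective tissue and are made mainly by fibroblasts, which in the brain lie in the meninges and around larger vessels.

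Values are log2 intensities, differences are on the log2 scale with their standard error (SE) from limma, and a gene is called when its limma p, adjusted by the Benjamini-Hochberg method over all 19937 genes, is under 0.05. A difference of 1 on this scale is a 2-fold difference in intensity. In dim genes array background narrows such differences. Of the 56 genes 40 averaged 6.13 or more in at least 1 group, 6.13 being the median over genes of the mean on all arrays, and the other 16 averaged less in every group. The labels of the sorts were set beside marker genes. Homeostatic microglia markers (9 measured, among them Tmem119 and P2ry12) averaged 8.09, 8.10 and 8.96 on the Ly6C-high arrays, 11.04, 11.53 and 11.44 on the Ly6C-low arrays and 6.86 to 6.94 on the monocyte arrays. Their mean in Ly6C-high microglia thus lay between those of the other groups, and all 9 were called lower there than in Ly6C-low microglia. Against monocytes 7 of the 9 were called higher in Ly6C-high microglia (6.88% of all genes), and the lowest difference was -0.34. Brain endothelium markers (12, among them Cldn5 and Pecam1) averaged 10.30, 10.56 and 10.81 on the Ly6C-high arrays, against 7.53, 7.03 and 6.31 on the Ly6C-low arrays, and all 12 were called higher. In bulk samples such as these, fewer cells of a type and less RNA per cell cannot be told apart. Correlations between arrays ran from 0.872 to 0.924 within Ly6C-high microglia, and were at least 0.967 within the other groups.

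Between Ly6C-high and Ly6C-low microglia 10 of the 56 genes were called. The 7 higher ones were Col4a1, Col4a2, Lama4, Lama5, Lamb2, Lamc1 and Nid1, all components of basement membranes, and they were 1.80-fold to 4.51-fold higher. The 3 lower ones were Col6a3, Col15a1 and Col27a1, from 3 other collagen classes. Of all genes, 4.49% were called higher and 11% lower in this comparison, so 7 of 56 is above the share of all genes that were higher, and 3 of 56 is below the share that were lower. Under quantile normalization and cyclic loess the split of all calls shifted, with 40.8% of calls higher under each against 29.1% on the deposited values, while the same 7 genes were called higher. The median difference over the 56 genes was 0.07, beside 0.05 over all genes. Under quantile normalization it was 0.21 (all genes 0.05) and under cyclic loess 0.14 (all genes 0.02). The difference was positive for 44 of the 56, and for 11197 of all 19937 genes. Without Ly6C-high replicate 1 it was positive for 21 of the 56, and for 9548 of all genes. The median was then -0.03, beside -0.01 over all genes.

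**Figure D1:**
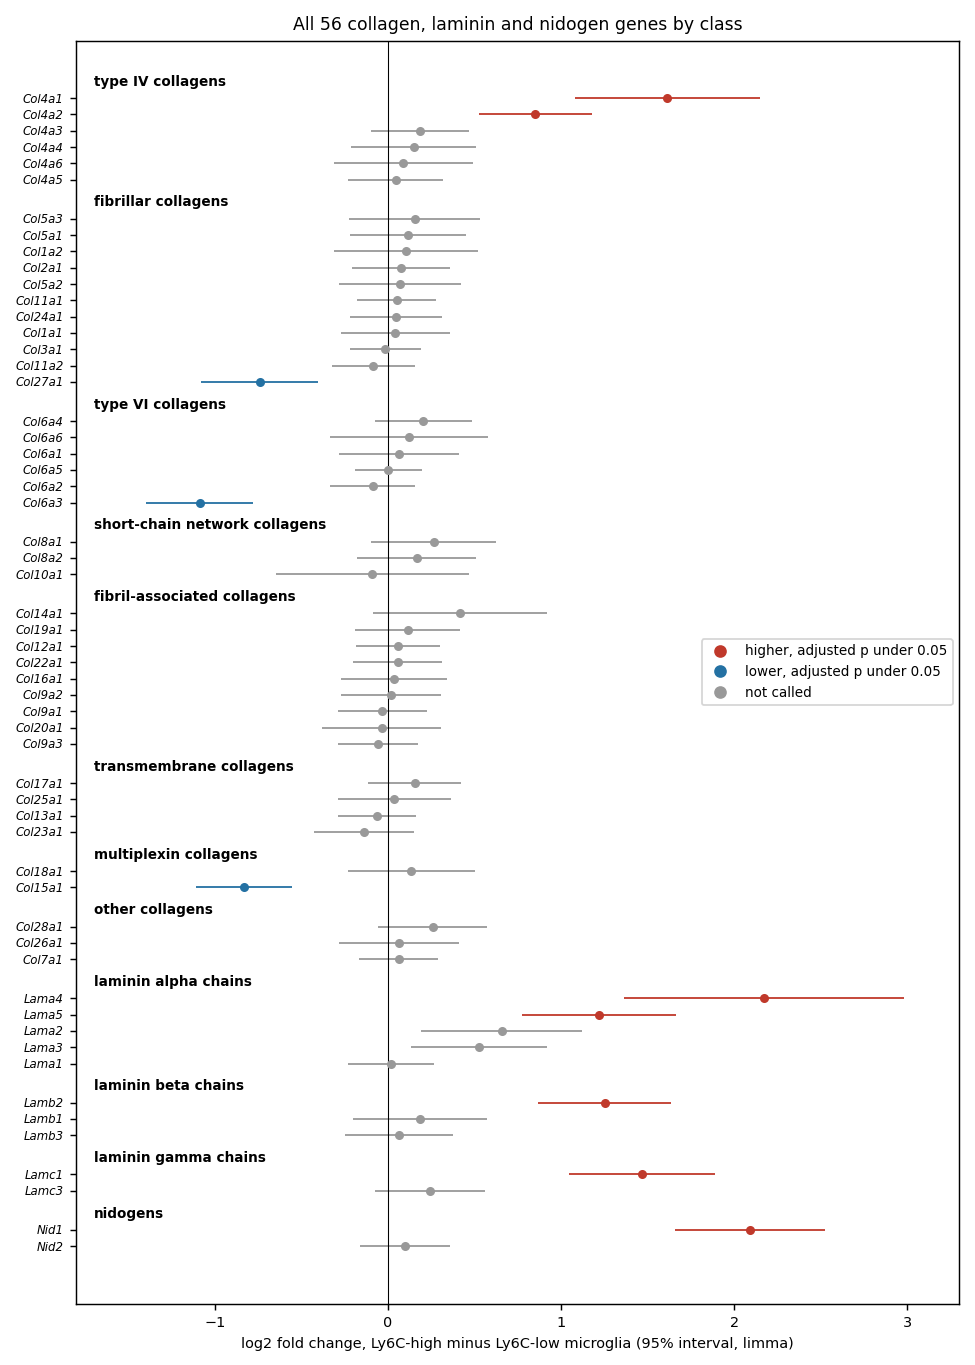
Log2 difference of Ly6C-high minus Ly6C-low microglia for each of the 56 genes, ordered within class, with the 95% interval from limma. Of the 56 genes 7 lie to the right with an adjusted p under 0.05 (red), 3 to the left (blue), and the 46 grey genes lie between -0.14 and 0.66.

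Type IV collagen was represented by 6 genes. Col4a1 and Col4a2 encode the chains of the network found in all basement membranes, while Col4a3 to Col4a6 encode chains of more restricted tissues such as the kidney glomerulus. Col4a1 (probe set 10576973) stood at 7.59, 8.01 and 8.65 in Ly6C-high microglia, 6.61, 6.38 and 6.41 in Ly6C-low microglia and 6.14, 6.22 and 6.22 in monocytes. Col4a2 (probe set 10570068) stood at 7.39, 7.33 and 7.47 in Ly6C-high microglia, 6.83, 6.53 and 6.28 in Ly6C-low microglia and 6.26, 6.19 and 6.35 in monocytes. For both genes every Ly6C-high array lay above every array of the other groups. Col4a1 was 3.06-fold higher in Ly6C-high than in Ly6C-low microglia (difference 1.61, SE 0.23, adjusted p = 0.00215), and Col4a2 1.80-fold (0.85, SE 0.14, adjusted p = 0.00447). Col4a3, Col4a4, Col4a5 and Col4a6 were not called, with differences of 0.18, 0.15, 0.04 and 0.09. The 95% interval of Col4a3, the largest of these, ran from -0.10 to 0.47.

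Col4a1 and Col4a2 lie head to head, and their promoter windows are shown because both genes were called and share part of this sequence. In the RefSeq promoter table for GRCm38.p6, whose windows reach from 250 bases before to 50 bases after an annotated start, the starts lie 21 bases apart on opposite strands of chromosome 8. The windows are chr8:11312777-11313076 on the minus strand for Col4a1 and chr8:11312555-11312854 on the plus strand for Col4a2. Capitals mark the 78 bases that both windows hold, read in opposite directions.
Col4a1: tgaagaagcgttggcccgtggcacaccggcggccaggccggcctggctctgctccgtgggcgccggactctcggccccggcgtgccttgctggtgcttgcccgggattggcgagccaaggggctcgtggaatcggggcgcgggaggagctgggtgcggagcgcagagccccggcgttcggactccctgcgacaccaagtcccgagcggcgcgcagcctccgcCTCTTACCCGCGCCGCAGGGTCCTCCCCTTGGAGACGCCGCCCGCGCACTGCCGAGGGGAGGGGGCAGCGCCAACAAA
Col4a2: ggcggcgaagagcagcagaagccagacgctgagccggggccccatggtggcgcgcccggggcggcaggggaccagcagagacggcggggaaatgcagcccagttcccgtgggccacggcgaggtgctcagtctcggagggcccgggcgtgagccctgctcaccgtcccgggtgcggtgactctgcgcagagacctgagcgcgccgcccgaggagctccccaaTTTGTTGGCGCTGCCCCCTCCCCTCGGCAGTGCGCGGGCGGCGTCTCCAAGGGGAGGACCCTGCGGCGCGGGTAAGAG
These windows have a GC content of 74.0% and 73.7%, against a median of 52.7% over the 32851 windows of this length in the table. The other type IV pair in the table, Col4a5 and Col4a6 on the X chromosome, has starts 1343 bases apart and windows that do not overlap. The 56 genes include 8 pairs that are next to each other among protein-coding genes, and Col4a1 with Col4a2 is the only such pair with a call in any of the 3 comparisons.

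Of the 5 laminin alpha chains, which carry the part of the trimer that binds cell receptors, Lama4 and Lama5 were called higher in Ly6C-high microglia. Both are the known alpha chains of endothelial basement membranes. Lama4 (probe set 10362538) stood at 6.78, 8.34 and 7.91 in Ly6C-high microglia, 5.86, 5.36 and 5.30 in Ly6C-low microglia and 5.13, 5.03 and 5.08 in monocytes. Its groups did not overlap, although Ly6C-high replicate 1 lay well below the other Ly6C-high replicates. The difference between the microglia groups was 2.17 (SE 0.35, 4.51-fold, adjusted p = 0.00379), and it ranged from 1.74 to 2.62 over the alternative settings. Lama5 (probe set 10490384) stood at 7.21, 7.62 and 7.88 in Ly6C-high microglia, 6.66, 6.29 and 6.11 in Ly6C-low microglia and 5.72, 5.70 and 5.85 in monocytes, and again the groups were separate. It was 2.33-fold higher in Ly6C-high than in Ly6C-low microglia (1.22, SE 0.20, adjusted p = 0.00346).

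The other alpha chains were not called between the microglia groups. Lama2, the alpha chain of muscle and of the outer, parenchymal sheet around brain vessels, stood at 5.26, 5.06 and 5.92 in Ly6C-high microglia and at 4.86, 4.72 and 4.69 in Ly6C-low microglia (difference 0.66, SE 0.20, adjusted p = 0.0653). Its Ly6C-high arrays all lay above the Ly6C-low ones, and the difference was called without Ly6C-high replicate 2 (0.84, adjusted p = 0.0196). Lama3, an alpha chain of epithelial anchoring structures, was at 5.58, 5.64 and 6.16 in Ly6C-high microglia against 5.44, 5.29 and 5.07 in Ly6C-low microglia (0.52, SE 0.17, adjusted p = 0.0795), without overlap. Both genes are dim on these arrays, below the median of all genes. Lama1, the alpha chain of early embryonic sheets, differed by 0.02, with a 95% interval from -0.23 to 0.26.

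Among the beta chains, Lamb2 was called and Lamb1 and Lamb3 were not. Lamb2, a beta chain of mature vessel walls and of the neuromuscular junction, read from probe set 10588942, stood at 8.92, 8.45 and 8.81 in Ly6C-high microglia, 7.74, 7.46 and 7.22 in Ly6C-low microglia and 6.44, 6.41 and 6.32 in monocytes. It was the only one of the 56 genes called in all 3 comparisons, with Ly6C-low microglia between the other groups on every array. It was 2.38-fold higher in Ly6C-high than in Ly6C-low microglia (1.25, SE 0.17, adjusted p = 0.00146). Lamb1, the more widespread beta chain, differed by 0.19 between the microglia groups (95% interval -0.20 to 0.57), and Lamb3, an epithelial chain, by 0.06.

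Of the gamma chains, Lamc1, which is part of most laminins, was called higher. Lamc1 (probe set 10358816) stood at 8.12, 8.34 and 8.69 in Ly6C-high microglia, 7.08, 6.98 and 6.70 in Ly6C-low microglia and 7.31, 7.45 and 6.99 in monocytes. Ly6C-high arrays were above all others, and the Ly6C-low arrays overlapped the monocytes. The difference between the microglia groups was 1.47 (SE 0.19, 2.76-fold, adjusted p = 0.00112). Lamc3, a gamma chain known from retina and brain, differed by 0.24 and was not called (adjusted p = 0.298).

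The nidogens differed from each other. Nid1, which binds both the laminin gamma chain and type IV collagen, had the smallest adjusted p of the 56 genes between the microglia groups. Nid1 (probe set 10403584) stood at 7.82, 7.99 and 7.98 in Ly6C-high microglia, 6.27, 5.74 and 5.51 in Ly6C-low microglia and 6.00, 6.01 and 6.27 in monocytes. The Ly6C-high arrays lay close together and above all 6 other arrays. Nid1 was 4.26-fold higher in Ly6C-high than in Ly6C-low microglia (2.09, SE 0.19, adjusted p = 2.03e-04). Its close relative Nid2, also a basement membrane protein, stood at 6.44, 6.70 and 6.70 in Ly6C-high microglia and at 6.65, 6.44 and 6.45 in Ly6C-low microglia, where the arrays overlapped (0.10, 95% interval -0.16 to 0.36, adjusted p = 0.589).

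**Figure D2:**
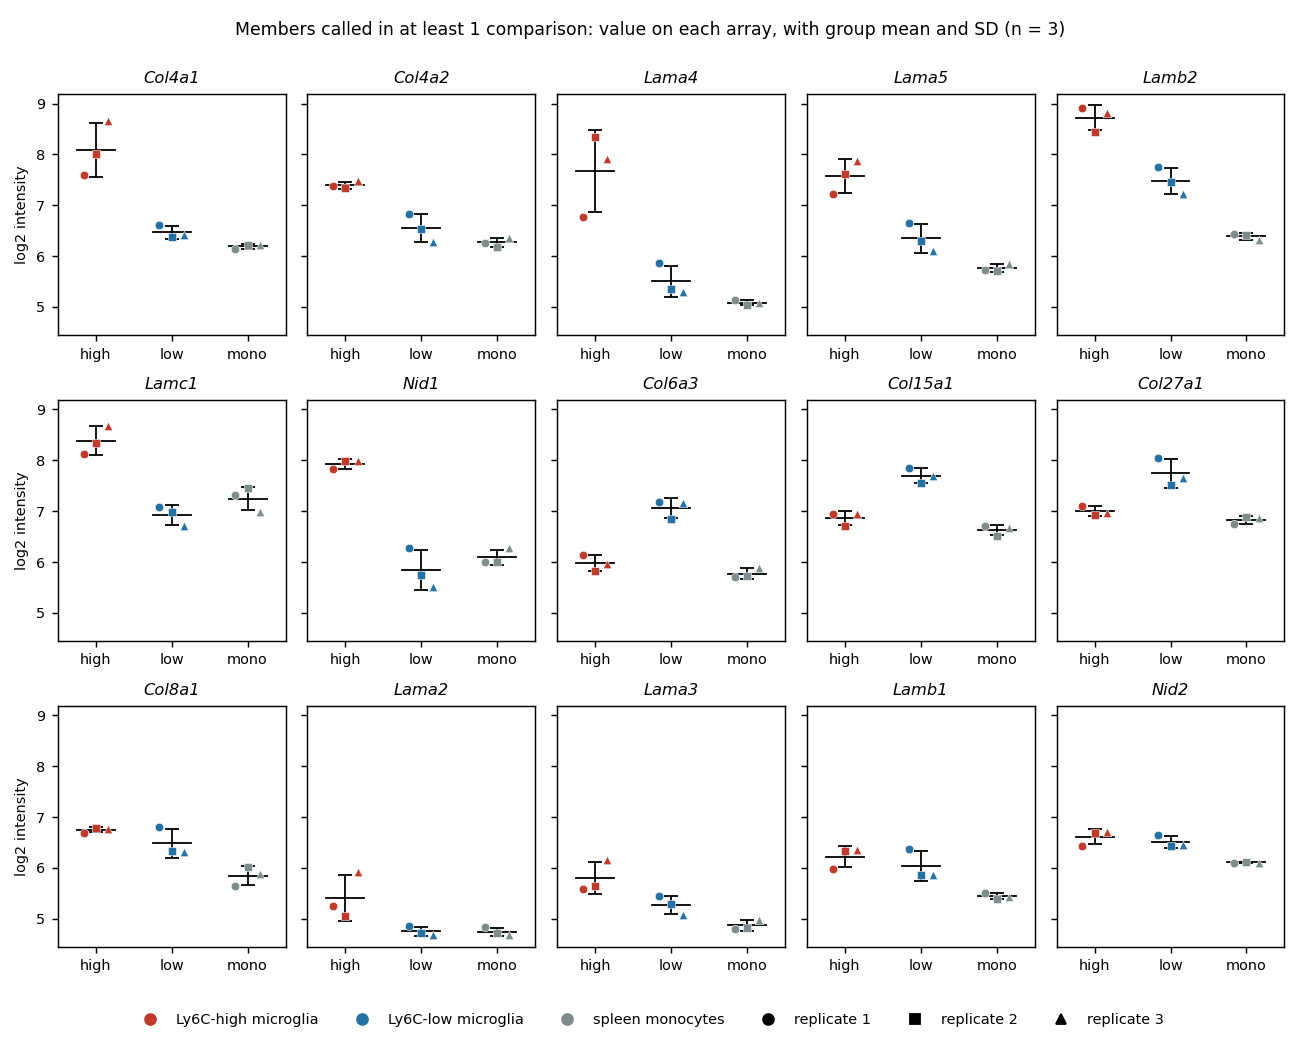
Log2 intensity on each of the 9 arrays for the 15 genes called in at least 1 comparison, on one shared axis, with Ly6C-high microglia left, Ly6C-low microglia in the middle and spleen monocytes right. Lines and bars are the group mean and SD (n = 3), and symbols mark the replicate. Nid1 stands between 7.82 and 7.99 on the Ly6C-high arrays and at 6.27 or below on the others, while Col6a3, Col15a1 and Col27a1 are highest on the Ly6C-low arrays.

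The 7 higher genes were set beside endothelial markers. They were chosen by their call, so a higher mean on the Ly6C-high than on the Ly6C-low arrays follows from the choice. Their mean level was 7.69, 8.01 and 8.20 on the Ly6C-high arrays, 6.72, 6.39 and 6.22 on the Ly6C-low arrays and 6.14 to 6.15 on the monocyte arrays. The endothelium marker mean of each array, given above, has the same order of arrays within both microglia groups. Neither order was particular to endothelium. The Ly6C-low order was also that of the pericyte, fibroblast, astrocyte and choroid plexus marker means. The Ly6C-high order was also that of the homeostatic microglia marker mean. In 6 of the 7 genes, all but Col4a1, the Ly6C-low arrays ran from replicate 1 as the highest through replicate 2 to replicate 3 as the lowest, which held for 25 of the 56 genes (44.6%) and for 20.7% of all genes. Ly6C-low replicate 1 also had the highest Ly6C-low endothelium mean (7.53) and replicate 3 the lowest (6.31). The 13 pericyte and smooth muscle markers averaged 7.14, 6.94 and 8.05 on the Ly6C-high arrays and 6.98, 6.55 and 6.17 on the Ly6C-low arrays. Of the 13, 1 was called higher, against 4.49% of all genes. All 13 differences were positive, against 56.2% of all genes, with a median of 0.74, beside 0.05 over all genes. At an unadjusted limma p under 0.05, 4 were higher and 0 lower. The part of endothelium and of pericytes in the differences of the 7 genes was not tested. All 7 calls held in each of the 20 alternative settings, among them each array left out in turn.

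No fibroblast marker was called between the microglia groups, where 4.49% of all genes were called higher and 11% lower. Their means were 5.28, 4.90 and 5.12 on the Ly6C-high arrays and 5.26, 4.97 and 4.96 on the Ly6C-low arrays, and limma called 0 of 11 in either direction, with 0 also at an unadjusted p under 0.05. Only 1 of the 11 averaged 6.13 or more in any of the 3 groups, and Pdgfra, Dcn, Lum and Dpt averaged 5.27, 5.65, 3.66 and 3.95 in Ly6C-high microglia.

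**Figure D3:**
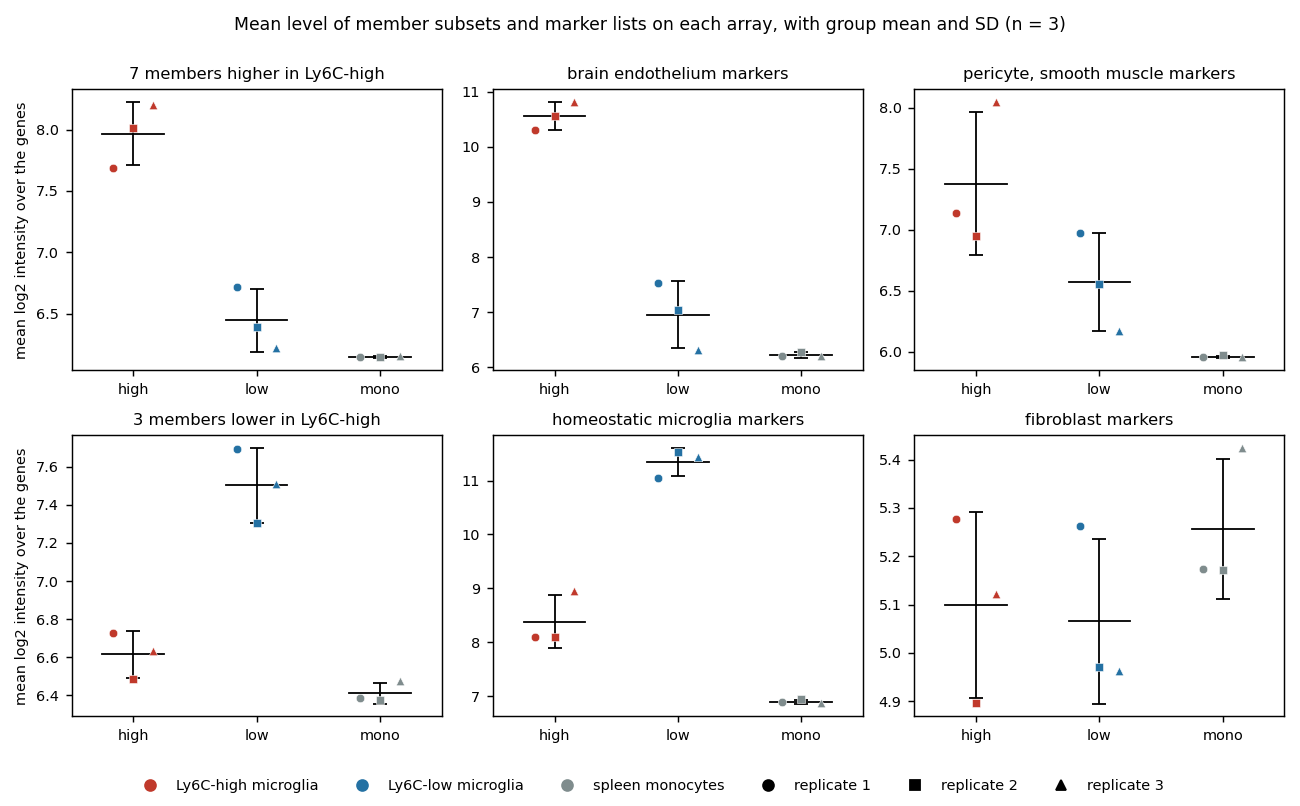
Mean log2 intensity on each array over the 7 higher and the 3 lower genes (left) and over 4 marker lists, with group mean and SD (n = 3). Each panel has its own vertical axis. The 7 and the 3 genes were chosen by their calls between the microglia groups, which fixes the order of these groups in their panels. The 7 higher genes and the 12 endothelium markers are both highest on the Ly6C-high arrays, at 7.69 to 8.20 and 10.30 to 10.81, and the 3 lower genes and the 9 microglia markers are both highest on the Ly6C-low arrays, at 7.30 to 7.69 and 11.04 to 11.53.

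The 3 genes that fell in Ly6C-high microglia were higher in Ly6C-low microglia than in monocytes as well, and none was called between Ly6C-high microglia and monocytes. Col6a3 encodes the largest chain of type VI collagen, which forms beaded microfilaments beside basement membranes. Col6a3 (probe set 10356520) stood at 6.13, 5.82 and 5.97 in Ly6C-high microglia, 7.19, 6.84 and 7.16 in Ly6C-low microglia and 5.71, 5.73 and 5.89 in monocytes. It was 2.13-fold lower in Ly6C-high than in Ly6C-low microglia (difference -1.09, SE 0.14, adjusted p = 0.00101). Col6a1 and Col6a2, which encode the chains that Col6a3 assembles with, were not called, with differences of 0.06 and -0.09.

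Col15a1, a collagen of the outer face of basement membranes, read from probe set 10504775, stood at 6.95, 6.71 and 6.95 in Ly6C-high microglia, 7.84, 7.56 and 7.70 in Ly6C-low microglia and 6.71, 6.51 and 6.67 in monocytes. Col27a1, a fibrillar collagen best known from cartilage, read from probe set 10505374, stood at 7.10, 6.93 and 6.97 in Ly6C-high microglia, 8.05, 7.51 and 7.66 in Ly6C-low microglia and 6.74, 6.88 and 6.87 in monocytes. For both genes every Ly6C-low array lay above all 6 others. Col15a1 was 1.78-fold lower in Ly6C-high than in Ly6C-low microglia (-0.83, SE 0.12, adjusted p = 0.00221) and Col27a1 1.67-fold lower (-0.74, SE 0.15, adjusted p = 0.01). The Col27a1 call was lost under quantile normalization (-0.57, adjusted p = 0.0884), cyclic loess (-0.55, adjusted p = 0.0525), array weights per group (adjusted p = 0.0626) and without both Ly6C-high replicate 2 and Ly6C-low replicate 3 (adjusted p = 0.0584). Col18a1, the other multiplexin and the source of endostatin, was not called (0.13). The mean level of the 3 lower genes was 6.73, 6.48 and 6.63 on the Ly6C-high arrays, 7.69, 7.30 and 7.51 on the Ly6C-low arrays and 6.37 to 6.47 on the monocyte arrays. That the 3 were lower in Ly6C-high than in Ly6C-low microglia follows from their choice by this call. The homeostatic microglia markers were also highest on the Ly6C-low arrays. The part of the share of microglia in the differences of the 3 genes was not tested.

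Col6a3 fell while Nid1 rose, and the promoter windows of both are shown to set them side by side. The Nid1 window is chr13:13437352-13437651 on the plus strand, and the Col6a3 window is chr1:90843922-90844221 on the minus strand. Capitals mark a CCAAT box, here as its reverse complement, and a GC box (GGGCGG) in Nid1, at positions -91 and -67 from the start. The Col6a3 window held none of the 5 motifs searched and is all in lower case. Other windows did not follow this contrast. That of Lamb2, called higher, also held none of the motifs, and that of Col27a1, called lower, held GC boxes at positions -85 and 43.
Nid1: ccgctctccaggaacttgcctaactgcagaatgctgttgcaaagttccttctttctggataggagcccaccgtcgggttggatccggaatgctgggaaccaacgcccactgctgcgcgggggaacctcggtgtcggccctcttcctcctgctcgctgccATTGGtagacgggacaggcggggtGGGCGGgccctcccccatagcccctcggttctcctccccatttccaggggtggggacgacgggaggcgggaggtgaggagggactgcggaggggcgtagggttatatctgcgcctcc
Col6a3: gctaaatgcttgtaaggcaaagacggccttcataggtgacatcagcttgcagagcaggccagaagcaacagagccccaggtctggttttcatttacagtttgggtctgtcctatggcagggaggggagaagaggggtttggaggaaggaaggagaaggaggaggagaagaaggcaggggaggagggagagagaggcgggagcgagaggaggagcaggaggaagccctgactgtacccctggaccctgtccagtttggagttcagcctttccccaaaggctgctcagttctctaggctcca
The motifs, searched on both strands, were the GC box GGGCGG, the box CCAAT, the AP-1 site TGACTCA, the ETS site CCGGAAGT and the PU.1-type ETS site GAGGAAGT. Those of the ETS type share their last 6 letters but cannot match at the same place. The table held 45 windows for 41 of the 56 genes and for 11 of the 15 called in any comparison. Shares of all windows, like the median GC content above, are over the whole table and not limited to protein-coding genes. GGGCGG was found in 27 of the 45 windows (60.0%), against 35.7% of all windows, and CCAAT in 15 (33.3%), against 37.4%. TGACTCA was found in the window of Col6a1 alone (2.2%, against 5.2% of all), and neither ETS motif in any of the 45, against 3.9% and 3.2% of all windows.

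The collagen classes outside the basement membrane were counted beside the share of all genes, 4.49% called higher and 11% lower between the microglia groups. Each class is too small for its count to be set apart from these shares. Of 11 fibrillar collagens 1 was called between the microglia groups, Col27a1, and the other 10 differed by -0.08 to 0.15, Col5a3 having the largest of these differences. Col1a1 and Col3a1, the main fibrillar collagens of connective tissue, named after their values were seen, differed by 0.04 and -0.02. Of 9 fibril-associated, 4 transmembrane, 3 short-chain network and 3 other collagens, limma called 0, with 0 also at an unadjusted p under 0.05 in each class. Col14a1, which binds the surface of collagen fibrils, had the largest difference of the fibril-associated class, 0.42 (adjusted p = 0.256), and Col8a1, a network collagen of the vessel wall, that of the short-chain class, 0.26. Of the transmembrane class Col17a1 was at 0.15, and of the other collagens Col28a1 was at 0.26. Over all 41 genes called in no comparison the range over the 9 arrays was under 1 in 40, beside 10893 of all 19937 genes. Choosing genes without a call itself favours small ranges.

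Against spleen monocytes, Ly6C-high microglia were higher in 12 of the 56 genes and lower in 0. Of all genes 6.88% were called higher and 14.6% lower, and at an unadjusted p under 0.05 the counts were 17 higher and 0 lower. The 12 were the 7 basement membrane genes named above with Lama2, Lama3, Lamb1, Nid2 and Col8a1, so 11 of them encode type IV collagen, laminin chains or nidogens. The median difference was 0.21 over the 56 genes, beside 0.09 over all genes. Without Ly6C-high replicate 1 it was 0.09, beside 0.04 over all genes. Lama4 was 6.05-fold higher (2.60, SE 0.35, adjusted p = 0.00142), Lamb2 5.06-fold (2.34, SE 0.17, adjusted p = 5.06e-05) and Col4a1 3.71-fold (1.89, SE 0.23, adjusted p = 8.64e-04). Nid1 and Lama5 were higher by 1.84 and 1.81, and Col4a2 and Lamc1 by 1.13 each. Of all calls 32.0% were higher, against 45.1% under quantile normalization and 43.5% under cyclic loess.

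The remaining 5 were smaller. Col8a1 stood at 6.69, 6.79 and 6.76 in Ly6C-high microglia, 6.81, 6.33 and 6.31 in Ly6C-low microglia and 5.65, 6.02 and 5.87 in monocytes, and both microglia groups lay above the monocytes (0.90, adjusted p = 0.00514, for Ly6C-high microglia). Lamb1 stood at 5.98, 6.33 and 6.35 in Ly6C-high microglia, 6.38, 5.86 and 5.86 in Ly6C-low microglia and 5.51, 5.39 and 5.42 in monocytes (Ly6C-high minus monocytes 0.78, adjusted p = 0.0132). Nid2, with 6.10, 6.12 and 6.10 in monocytes, differed by 0.51 (adjusted p = 0.015), and Lama3, with 4.81, 4.82 and 4.99 in monocytes, by 0.92 (adjusted p = 0.00659). None of these overlapped between Ly6C-high microglia and monocytes, as was the case for 4796 genes above and 4357 below among all 19937. Lama2 was barely past the threshold (0.67, adjusted p = 0.0493) and was lost in 13 of 19 alternatives, among them any one of Ly6C-high replicate 1, a Ly6C-low array or a monocyte array left out. The Nid2 call was lost without monocyte replicate 1, 2 or 3 (highest adjusted p = 0.0558), and the Lamb1 call without monocyte replicate 2 (adjusted p = 0.052). Lamc3 was not called (0.40, adjusted p = 0.0728). All 12 endothelium and 5 of 13 pericyte and smooth muscle markers were higher in Ly6C-high microglia than in monocytes, and their part in these differences was not tested.

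Against the same monocytes, Ly6C-low microglia were higher in 7 of the 56 genes and lower in 0, with 6.80% of all genes called higher and 7.71% lower. At an unadjusted p under 0.05 the counts were 10 higher and 1 lower, the lower one being Col14a1. The 7 genes were Lamb2, Lamb1, Nid2, Col8a1, Col6a3, Col15a1 and Col27a1. Since this comparison and those above share arrays, their values are given side by side and not related to each other. Col6a3 was 2.44-fold higher in Ly6C-low microglia than in monocytes (1.29, SE 0.14, adjusted p = 3.63e-04), Col15a1 2.10-fold (1.07, SE 0.12, adjusted p = 5.61e-04), Lamb2 2.13-fold (1.09, SE 0.17, adjusted p = 0.00292) and Col27a1 1.88-fold (0.91, SE 0.15, adjusted p = 0.00384). Those of Col8a1 (0.63, adjusted p = 0.0293), Lamb1 (0.59, adjusted p just under the threshold) and Nid2 (0.41, adjusted p = 0.0457) were less firm. They were lost in 5, 14 and 14 of 20 alternatives, and 4 members were left without Ly6C-low replicate 1, monocyte replicate 1 or monocyte replicate 3. For Col4a1, Col4a2 and Lama4 the differences were 0.28, 0.28 and 0.42, and for Nid1 and Lamc1 -0.25 and -0.33, none of them called. Lama5 differed by 0.59 (adjusted p = 0.086). In this comparison 4 of 12 endothelium and all 9 microglia markers were higher.

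Among proteins that bind or cross-bridge the basement membrane, more were called higher than lower in Ly6C-high microglia. Of 26 measured partners 10 were higher and 2 lower in Ly6C-high than in Ly6C-low microglia (median 0.18), against 4.49% and 11% of all genes. Egfl7, a matrix protein secreted by endothelial cells, led with 10.68, 10.43 and 11.27 in Ly6C-high microglia against 7.96, 7.21 and 6.66 in Ly6C-low microglia (3.51, SE 0.33). Fibronectin (Fn1, 3.03), Vwa1, a perlecan-binding protein of basement membranes (2.71), vitronectin (Vtn, 2.28) and Ecm1 (2.10) followed. The heparan sulphate proteoglycans agrin (Agrn, 1.78) and perlecan (Hspg2, 1.49), named after their values were seen, were also higher. Nephronectin (Npnt), an integrin ligand, was lower (-2.38, SE 0.33), and stood at 6.65, 6.23 and 6.82 in Ly6C-high microglia and 8.11, 9.23 and 9.50 in Ly6C-low microglia. The other lower partner was the collagen-binding Sparc (-0.50), also named after its values were seen, whose call was lost in 12 of 20 alternatives. Fn1 and Vtn are also in the monocyte and the pericyte marker lists used here, and Fn1 stood at 10.75, 11.60 and 10.97 in Ly6C-high microglia and at 11.15, 11.43 and 11.17 in monocytes.

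Against monocytes 11 of the 26 partners were higher (6.88% of all genes) and 1 lower (14.6% of all genes) in Ly6C-high microglia, with Egfl7 (3.97), Vtn (3.77), Vwa1 (3.19), Sparc (3.15) and Mmrn2 (2.55) leading and Tgfbi, a secreted integrin ligand, lower (-3.26). In Ly6C-low microglia 3 were higher and 2 lower than in monocytes, against 6.80% and 7.71% of all genes. Sparc (3.64), Npnt (2.54) and the elastic fibre protein Fbln5 (1.21) were higher, and Fn1 (-3.17) and Tgfbi (-2.96) were lower. The Fbln5 call was lost in 4 of 20 alternatives, among them each monocyte array left out. Sparc, at 12.09 to 12.42 in Ly6C-high and 12.72 to 12.82 in Ly6C-low microglia, was thus high in both microglia groups against 8.96 to 9.31 in monocytes.

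Of 32 measured genes whose products modify, carry or crosslink collagen, 4 were higher and 6 lower in Ly6C-high than in Ly6C-low microglia (median -0.02), against 4.49% and 11% of all genes. The lower ones were led by P3h2, a prolyl hydroxylase that acts on type IV collagen, at 6.72, 5.66 and 7.56 in Ly6C-high microglia, 9.61, 10.39 and 10.31 in Ly6C-low microglia and 5.49, 5.77 and 6.15 in monocytes (-3.46, SE 0.44, adjusted p = 0.00118). Every Ly6C-low array lay above all others. The lysyl hydroxylases Plod1 (-2.30) and Plod3 (-1.41), the prolyl hydroxylase subunit P4ha1 (-1.75) and the lysyl oxidase family member Loxl3 (-1.49, SE 0.13, adjusted p = 1.47e-04) also fell. Colgalt2, which adds galactose to collagen, rose by 1.62 on the log2 scale. The others, named after their values were seen, were the collagen chaperone Serpinh1 (1.34, SE 0.17), Plod2 (0.56) and peroxidasin (Pxdn, 0.44), which crosslinks type IV collagen, all higher, and P4hb (-1.16), which was lower. P4hb lost its call in 11 of 20 alternatives, Pxdn in 13 of 19 and Plod2 in 6 of 19.

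**Figure D4:**
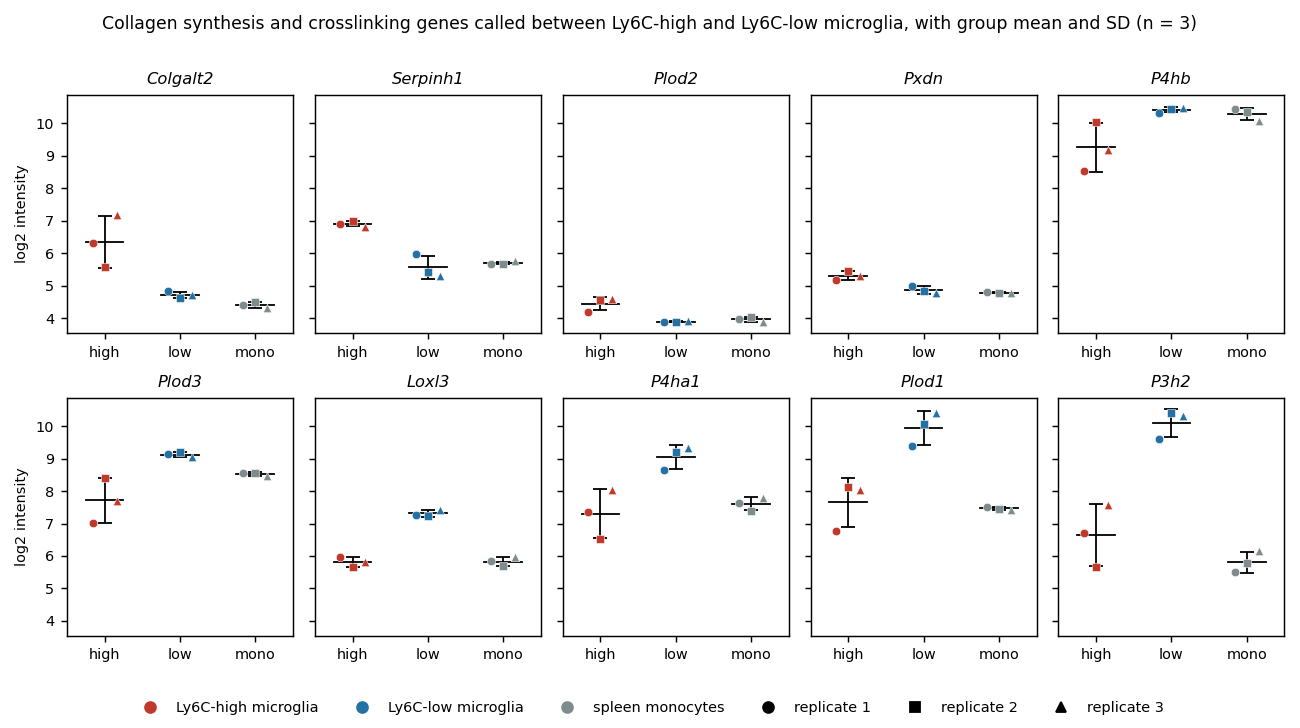
Log2 intensity on each array for the 10 collagen synthesis and crosslinking genes called between the microglia groups, with group mean and SD (n = 3). The upper row holds the 4 genes higher in Ly6C-high microglia and P4hb, and the lower row 5 genes that are lower there. P3h2 stands at 5.66 to 7.56 on the Ly6C-high arrays, 9.61 to 10.39 on the Ly6C-low arrays and 5.49 to 6.15 on the monocyte arrays.

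Against monocytes 5 of the 32 were higher in Ly6C-high microglia (6.88% of all genes) and 1 was lower (14.6% of all genes), namely Colgalt2 (1.95), Crtap (1.36), Serpinh1 (1.20), Pxdn (0.53), Plod2 (0.48) and, lower, Sec24d (-0.57). The Crtap and Sec24d calls were lost in 9 and 13 of 20 alternatives, and the Plod2 and Pxdn calls in 9 and 2 of 19. In Ly6C-low microglia 6 were higher than in monocytes (6.80% of all genes), P3h2 (4.30), Plod1 (2.48), Fkbp14 (1.56), Loxl3 (1.48), P4ha1 (1.44) and P3h3 (0.56), and 1 was lower (7.71% of all genes). The P4ha1 and Fkbp14 calls were lost in 5 of 20 and 4 of 19 alternatives. The homeostatic microglia markers were likewise higher in Ly6C-low microglia than in both other groups, and their part in the enzyme differences was not tested.

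A further list held receptors for collagen and laminin and the surface protein Cd93, with 18 genes measured. Of these 3 were higher and 1 lower in Ly6C-high than in Ly6C-low microglia, against 4.49% and 11% of all genes. The lower share is thus below that of all genes. The collagen-binding integrin chain Itga1 was higher by 3.20, Cd93, an endothelial and myeloid surface protein, by 3.03, and the laminin receptor Bcam by 1.92, a call lost in 1 of 20 alternatives. Lair1, an inhibitory collagen receptor of leukocytes, was at 6.91, 7.21 and 8.04 in Ly6C-high microglia, 10.51, 11.08 and 11.24 in Ly6C-low microglia and 8.27, 8.32 and 8.67 in monocytes, so that no array of one group reached into another (Ly6C-high minus Ly6C-low -3.56, SE 0.30). Against monocytes 3 of the 18 were higher in Ly6C-high microglia (6.88% of all genes) and 1 was lower (14.6% of all genes). Bcam (2.71), Itga1 (2.10) and the laminin-binding integrin chain Itga6 (1.38) were higher, and the Itga1 call was lost in 1 of 20 alternatives. Lair1 was lower (-1.03), a call lost in 13 of 20 alternatives. In Ly6C-low microglia against monocytes, 2 of the 18 were higher (6.80% of all genes), Lair1 (2.52) and Itga6 (2.01). Cd93 (-2.32) was the 1 lower gene (7.71% of all genes).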

How the data were processed

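RNA of 9 samples was read on Affymetrix whole-transcript arrays. The authors deposited log2 intensities of all arrays in 1 table. The submitters' processing notes name RMA and oligo without versions. The genome build and settings are not stated in the labels or headers used here. The array annotation gave 21640 of 34760 probe sets 1 symbol, 1321 several and 11799 none. The brightest probe set by its mean over 9 arrays stood for each of the 954 genes with several, which left 19937 genes.

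The deposited values were fitted without further scaling by 3 group means over all arrays, with lmFit and eBayes of limma 3.58.1 (R 4.3.3). Tests were two-sided, and every adjusted p is from this limma fit, or from the alternative named beside it. The code was tested on simulated data. The number of arrays limits the precision. Sequences are from RefSeq tables.

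The named genes are the called members, all type IV collagen, laminin and nidogen genes, up to 2 examples of other classes, up to 6 called genes of a partner, synthesis or receptor list and up to 4 markers of a list. Exceptions are marked in the text. The members and lists were chosen with earlier results of these data known. The alternatives were quantile, cyclic loess and median scaling, a filter that kept genes whose highest group mean reached the median of gene means (6.13), means of probe sets, array weights, a trended robust fit, blocks for the replicate or description number, each array left out and only the groups compared. A fit without both Ly6C-high replicate 2 and Ly6C-low replicate 3 was added after seeing the data. Of the listed genes, 3 synthesis genes and 1 receptor gene were not analysed here.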

Additional observations from a re-analysis of the deposited data

How the results depend on the processing

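No call of a member was reversed in any of the 20 alternatives. Of the members called, 9 of 10 between the microglia groups, 9 of 12 between Ly6C-high microglia and monocytes and 4 of 7 between Ly6C-low microglia and monocytes were called in every alternative that tested them, 19 for Lama3, which the filter on low values removes, and 20 for the others. With an array left out, 7 to 9 members were higher and 3 lower in Ly6C-high than in Ly6C-low microglia, 9 to 16 were higher in Ly6C-high microglia than in monocytes, and 4 to 8 were higher in Ly6C-low microglia than in monocytes. The last count, 7 on the deposited values, was also 4 with the replicate block and 4 without both Ly6C-high replicate 2 and Ly6C-low replicate 3. Same-numbered replicates did not deviate together in all pairs (correlations of their deviations from the group means from -0.07 to 0.30). The labels' description numbers are shared by Ly6C-high replicate 1 and Ly6C-low replicate 1 and by Ly6C-high replicate 2 and Ly6C-low replicate 3, whose deviations correlated at 0.30 and 0.21. What these numbers mark is not stated. With the replicate block 7 members were higher and 3 lower between the microglia groups, 11 were higher in Ly6C-high microglia than in monocytes, and the counts over all genes were 2973, 4295 and 2795 in the order of the comparisons above. The description number as a random block gave 8 higher and 3 lower members between the microglia groups, and lost Lama2 for Ly6C-high microglia against monocytes and Lamb1 and Nid2 for Ly6C-low microglia against monocytes (adjusted p = 0.0509, 0.0661 and 0.0527). Over all genes, the 3080 calls between the microglia groups were 1956 to 3888 with an array left out (1956 when Ly6C-low replicate 3 and 2011 when Ly6C-low replicate 2 was left out) and 2038 with only the 2 groups compared. The 4290 calls of Ly6C-high microglia against monocytes were 2505 to 6091 (2505 without monocyte replicate 1 and 2511 without monocyte replicate 2). The 2894 calls of Ly6C-low microglia against monocytes were 1864 to 3778 (1864 without monocyte replicate 1), 5175 with array weights per group and 4614 with only the 2 groups compared. Fewer arrays enter the fits that leave one out or compare 2 groups, and otherwise the cause was not tested. Dim genes, such as the 16 members below the median of all gene means in every group, have compressed differences.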

Other observations

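Many of the small positive differences of the uncalled genes rested on 1 array. Ly6C-high replicate 1 held the highest value of all 9 arrays in 32 of the 56 genes (57.1%) and in 31 of the 41 genes called in no comparison (75.6%), against 32.7% of all genes. Its interquartile range over the probe sets was 2.24, and that of the other arrays was 2.62 to 2.91. Among the 41 uncalled genes the difference between Ly6C-high and Ly6C-low microglia was positive in 32, and without this array in 9. Over all 19937 genes the counts were 11197 and 9548.

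Exactly equal values were common among these genes. In 39 of the 56 (69.6%), and in 35 of the 41 uncalled ones (85.4%), at least 2 arrays carried the same value to 4 decimals, against 40.3% of all genes. Nid1 is among the cases, with 6.27 on both Ly6C-low replicate 1 and monocyte replicate 3. Ties also fell within a group, as in Col15a1 (6.95 on Ly6C-high replicates 1 and 3) and Lamb1 (5.86 on Ly6C-low replicates 2 and 3). Equal values within a group make its spread smaller, and the effect on the p-values was not tested.

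Other brain cell types were read as well. Of 8 astrocyte markers 1 was higher and 1 lower in Ly6C-high than in Ly6C-low microglia. Of all genes 4.49% were called higher and 11% lower, and the counts of these small lists are to be read beside those shares. Limma called 0 of 7 choroid plexus markers in this comparison, also 0 at an unadjusted p under 0.05. Of 8 markers of border-associated macrophages 3 were lower. Classical monocyte markers averaged 7.45, 9.57 and 6.39 on the Ly6C-high arrays and 6.03 to 6.29 on the Ly6C-low arrays, with 2 of 8 higher. Neutrophil markers averaged at most 7.37 on the Ly6C-high arrays and 6.97, 7.31 and 9.81 on the Ly6C-low arrays, with 2 of 9 lower.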
